A study of Mus musculus with 9 samples.

Results

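The genes described here are 10 components of the Notch pathway: the ligands Dll1, Dll4 and Jag1, the receptors Notch1 and Notch2, the receptor-modifying enzyme Lfng, the DNA-binding effector Rbpj, and the Hes and Hey family members Hes1, Hes6 and Hey1. They were chosen by gene symbol and not by their values, though earlier results of these data were known. All 10 were found among the 35013 symbols of both deposited tables. Bulk RNA-Seq had been performed on 3 sorted populations of small intestinal epithelial cells from young NFKO mice, whose genotype is Neurog3Cre-FoxO1 f/f; Rosa26tdtomato. Cre was driven by Neurog3, which is active in endocrine progenitors, so Tomato marked the descendants of Neurog3+ cells, and antibodies to Epcam and CD24 were used for sorting. The groups were CD24negTomato+, CD24+Tomato+ and Tomatoneg cells, with 3 biological replicates each. All groups carried the floxed FoxO1 alleles, Cre-driven deletion was intended in the Tomato+ cells alone, and no FoxO1 wild-type group was part of the 9 libraries. Neither the labels nor the methods say whether animals were pooled, so P values measure the spread between these libraries.

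Notch signaling passes between neighboring cells: a Delta or Jagged ligand on one cell binds a Notch receptor on the next, the receptor is cleaved, and its intracellular domain joins RBPJ on DNA to activate genes such as Hes1. In the intestinal crypt, HES1 represses Atoh1, so cells that receive the signal take the absorptive fate or remain progenitors, whereas cells that express Atoh1 become secretory and present Delta ligands to their neighbors. Goblet, Paneth, enteroendocrine and tuft cells are the differentiated cell types set against absorptive enterocytes in this scheme.

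Stretches of DNA before a start site of Dll1, Dll4, Hes6 and Lfng are shown because these were the members whose 3 CD24+Tomato+ values all lay above the 3 Tomatoneg values. Those of Dll4 and Lfng lie upstream of the annotated gene. Those of Dll1 and Hes6 lie inside it, before an internal start. They come from RefSeq start-site windows on GRCm38.p6, are written 5′ to 3′ on the strand of the gene, and end where an annotated exon of the gene begins. Capitals mark CAGCTG, an E box of the kind bound by proneural factors, and GTGGGAA, the core bound by RBPJ. The windows lie at chr17:15375977-15376073 (Dll1, minus strand), chr2:119325534-119325783 (Dll4, plus strand), chr1:91413223-91413472 (Hes6, minus strand) and chr5:140607091-140607319 (Lfng, plus strand).
Dll1: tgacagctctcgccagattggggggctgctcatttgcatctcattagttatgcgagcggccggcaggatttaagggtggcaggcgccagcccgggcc
Dll4: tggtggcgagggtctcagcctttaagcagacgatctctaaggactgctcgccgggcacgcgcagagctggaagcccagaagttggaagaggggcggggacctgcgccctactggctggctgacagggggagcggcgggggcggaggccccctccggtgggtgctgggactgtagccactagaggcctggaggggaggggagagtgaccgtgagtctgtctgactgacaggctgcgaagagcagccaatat
Hes6: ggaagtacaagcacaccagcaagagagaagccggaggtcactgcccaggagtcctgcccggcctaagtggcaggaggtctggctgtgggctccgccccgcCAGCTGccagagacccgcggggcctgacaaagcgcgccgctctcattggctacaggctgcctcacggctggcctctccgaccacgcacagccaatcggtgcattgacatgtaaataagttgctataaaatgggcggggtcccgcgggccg
Lfng: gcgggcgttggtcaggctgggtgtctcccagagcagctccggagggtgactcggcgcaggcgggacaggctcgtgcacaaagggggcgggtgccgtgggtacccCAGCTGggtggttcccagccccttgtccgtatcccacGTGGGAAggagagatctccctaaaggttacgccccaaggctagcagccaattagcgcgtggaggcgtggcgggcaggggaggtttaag
The E box in the Hes6 window began 150 bases before the RefSeq start, and in the Lfng window the E box and the RBPJ core began 146 and 109 bases before it. The Dll1 and Dll4 stretches contained neither motif. RefSeq windows of 300 bases, from 250 before to 50 after a start, were given for 8 of the 10 members (11 windows), with none for Hes1 and Hey1. On either strand, CAGCTG was present in 5 of the 11 windows (Dll1 at an upstream alternative start, both of Hes6, Jag1 and Lfng) and in 16.3% of all 32851 windows. The RBPJ core was present in 1 of the 11, that of Lfng, and in 6.4% of all windows. The E box CAGATG was present in 0 of the 11 and in 17.2% of all windows, and CACNAG, an N box of the kind bound by Hes factors, in 6 of the 11 and in 42.5% of all windows.

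Values are normalized counts, that is, gene counts estimated by kallisto and scaled by DESeq2. The Tomatoneg libraries were shared by both tables, which had been scaled separately, so each Tomato+ population was compared with Tomatoneg within its own table. Estimated depth was 27723808 to 39233080 reads in Tomato+ and 19157905 to 24368380 in Tomatoneg libraries, and 3 reads, taken as the limit of detection, were worth 2.10 to 4.29 normalized counts. Tomatoneg replicate 1 stood apart, with 13025 genes above 0 where the other Tomatoneg libraries had 15644 and 16008, and members whose result rests on it are given with and without it. Foxo1, the gene targeted for deletion, was 467, 274 and 371 in CD24negTomato+ against 695, 518 and 424 in Tomatoneg libraries (log2 fold change -0.56, limma adjusted P = 0.427), which overlapped. In CD24+Tomato+ libraries Foxo1 was 319, 193 and 201 against 748, 529 and 444 (log2 fold change -1.27, adjusted P = 0.0579; 0.0220 with replicate number as a block). Counts over the whole gene also include transcripts that lack the deleted part, so they are an incomplete check of deletion. Cd24a, the gene of the sorting marker, reached 25857 to 30949 in CD24+Tomato+ libraries, against 993 to 2054 where CD24neg cells were sorted and 2944 to 5914 in the Tomatoneg libraries.

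In CD24+Tomato+ cells, the Delta ligand genes Dll4 and Dll1 were higher than in Tomatoneg cells, by 2.22 ± 0.22 and 1.22 ± 0.31 on the log2 scale (± SE, n = 3 against 3). Of the 9 members that passed the filter of a mean of at least 10 normalized counts, 2 rose, 0 fell and 7 did not pass the threshold of 0.05 (limma, Benjamini-Hochberg adjusted over 13874 genes). Over all genes tested, 8.02% rose and 4.89% fell. Groups did not overlap for 4 members that were higher (Dll1, Dll4, Hes6 and Lfng) and 1 that was lower (Notch2), against 21.6% and 14.4% of all genes. The median log2 fold change of the 9 members was 0.66, and that of all genes was 0.16. With replicate number as a block, the same 2 members rose and none fell, against 10.8% and 9.95% of all genes.

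In CD24negTomato+ cells, none of the 9 tested members rose or fell against Tomatoneg cells (limma, adjusted over 13420 genes), where 0.999% of all genes rose and 0.32% fell. Before adjustment, 3 of the 9 (Dll4, Notch1 and Notch2) had a limma P under the threshold, 1 of them higher and 2 lower, against 10.3% and 6.82% of all genes. Groups did not overlap for 2 members that were higher (Dll4 and Jag1) and 3 that were lower (Notch1, Notch2 and Hes6), against 14.7% and 10.6% of all genes. The median log2 fold change was 0.34 for the members and 0.08 for all genes. The block did not bring any member past the threshold, while 4.34% of all genes then rose and 2.96% fell.

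**Figure D1:**
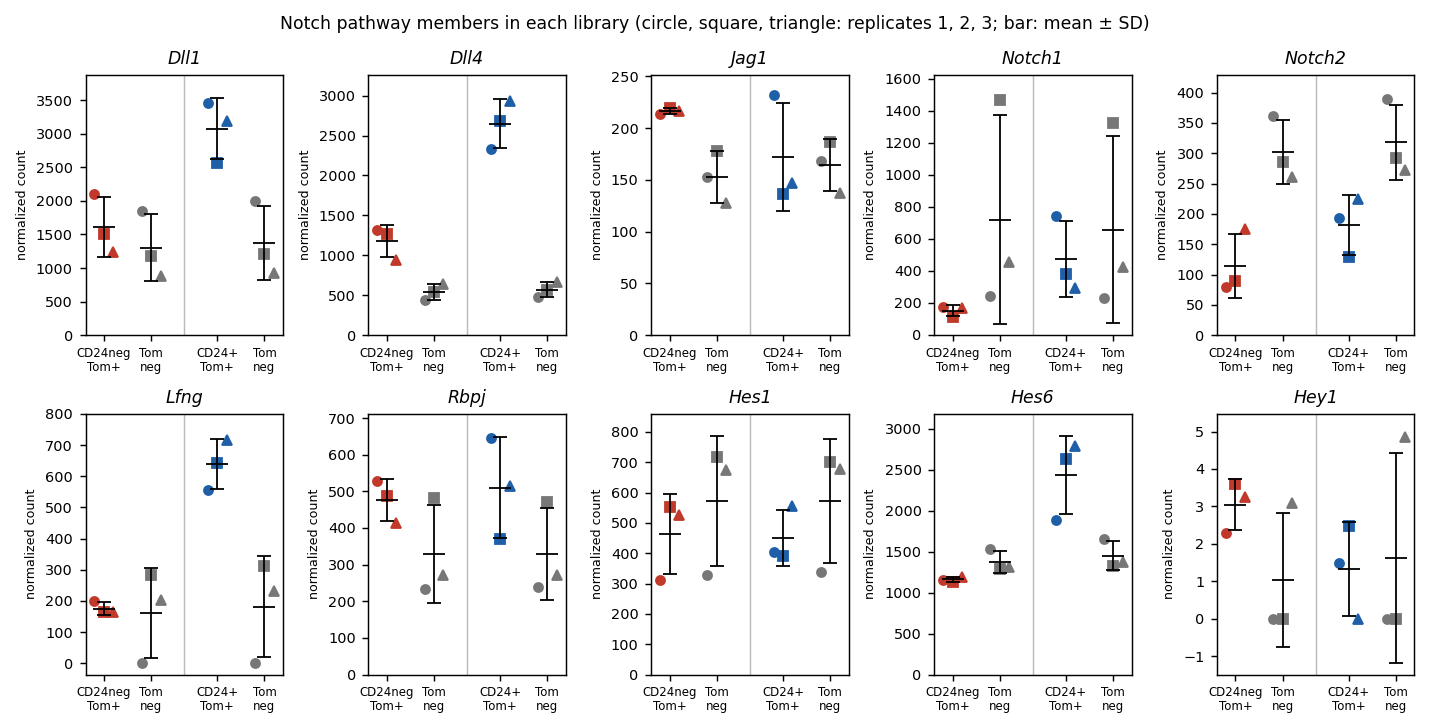
Normalized counts of the 10 Notch pathway members on a linear vertical axis, with a panel for each gene. In each panel the left pair of groups is CD24negTomato+ (red) and Tomatoneg (gray) in one table, and the right pair is CD24+Tomato+ (blue) and the same Tomatoneg libraries in the other. Circles, squares and triangles are replicates 1, 2 and 3, and black bars are mean ± SD. Dll4 in CD24+Tomato+ libraries sits at 2329 to 2937, above all Tomatoneg libraries, and Hey1 stays under 5 in all libraries.

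**Figure D2:**
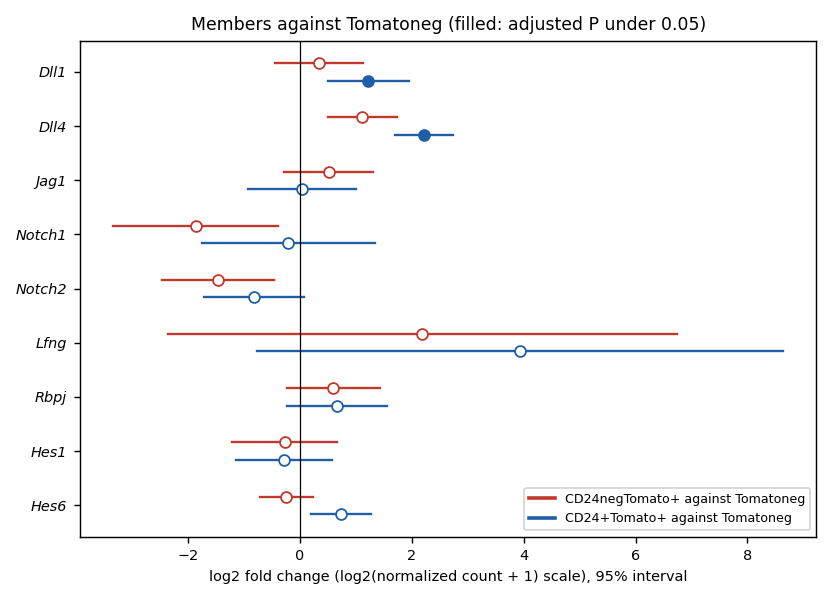
Log2 fold change against Tomatoneg (horizontal axis) of the 9 members tested, with 95% intervals, for CD24negTomato+ (red) and CD24+Tomato+ (blue). Filled circles have a limma adjusted P under 0.05, which holds for Dll1 and Dll4 in CD24+Tomato+ alone. The wide intervals of Lfng include 0 in both comparisons.

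Among the ligands, Dll4 gave the clearest difference. It is one of the Delta ligands that maintain Notch activity in crypt base stem cells. The Dll4 gene lies at chr2:119325784-119335962 on GRCm38 (plus strand, 11 exons in its longest coding transcript) and is overlapped by Gm14207 on the opposite strand. Normalized counts of Dll4 were 2329, 2681 and 2937 in CD24+Tomato+ replicates 1, 2 and 3 and 483, 562 and 672 in Tomatoneg. The lowest CD24+Tomato+ library was far above the highest Tomatoneg library (2.22 log2 fold change, 95% interval 1.69 to 2.74, limma adjusted P = 0.00288). Dll4 passed the threshold in all 14 alternatives, with fold changes of 2.10 to 2.34 on the log2 scale and adjusted P of 0.000388 to 0.0382 (limma). In CD24negTomato+ libraries, Dll4 was 1320.1, 1264 and 945 against 445, 545 and 636. These groups did not overlap either, and the log2 fold change of 1.12 ± 0.27 (SE, 95% interval 0.50 to 1.73) missed the threshold with a limma adjusted P of 0.0907, or 0.0519 with the block.

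Dll4 is also made by endothelial cells, so the endothelial list was measured beside it. Of its 8 genes, Emcn was 0 in all libraries, and Cdh5 was 0 in all 6 Tomato+ libraries and at most 4.45 in any Tomatoneg library. Kdr did not exceed 2.15, below the limit of detection in that library, and Eng did not exceed 2.36. Tie1 was low but above detection in CD24negTomato+ libraries, at 7.56, 7.42 and 3.68, and was 4.29, 4.25 and 0 in CD24+Tomato+ libraries. The summed endothelial list was 427 to 1007 in CD24+Tomato+ libraries against 187 to 881, of which Pecam1, which leukocytes share, gave 186 to 755 against 187 to 821. Esam (163 to 184 against 0 to 57.3) and Egfl7 (55.7 to 70.4 against 0 to 46.7) were higher without overlap in this comparison. In the same comparison all 8 genes of each of the goblet, Paneth and enteroendocrine lists were higher in mean, with sums of 1003284 to 1266715, 466993 to 1911606 and 169932 to 263059 against 149161 to 219034, 38223 to 150293 and 3274 to 7663 normalized counts. The tuft list was higher as well, at 13625 to 16813 against 1492 to 2243, with all 8 genes higher. All 8 enterocyte genes were lower, with a sum of 46773 to 130353 against 206048 to 780339. The part of these cell types in the member results was not tested, and in bulk libraries fewer cells of a type cannot be told apart from less RNA per cell.

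Dll1, the other Delta ligand of the crypt, marks secretory progenitors. Its gene lies at chr17:15367354-15376872 (minus strand, 11 exons) and is overlapped by A930024N18Rik on the opposite strand. Normalized counts of Dll1 were 3450.0, 2568 and 3194 in CD24+Tomato+ and 1995, 1207 and 928 in Tomatoneg libraries. The groups did not overlap, and the log2 fold change was 1.22 (95% interval 0.50 to 1.94, limma adjusted P = 0.0422, 0.0107 with the block). The call was less secure than that of Dll4: it held in 6 of 14 alternatives, while the log2 fold change stayed between 0.97 and 1.53. It was lost on leaving out any 1 library other than Tomatoneg replicate 1, with limma adjusted P of 0.0802 to 0.146. In CD24negTomato+ libraries Dll1 was 2107, 1504 and 1239 against 1852, 1180 and 884, and replicate 1 was highest in both groups. These values overlapped, with a log2 fold change of 0.34 (95% interval -0.45 to 1.13, limma adjusted P = 0.640). Without Tomatoneg replicate 1 the log2 fold change was 0.63 (limma adjusted P = 0.203).

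Jag1 encodes a ligand of the Jagged type. It lies at chr2:137081456-137116644 (minus strand, 26 exons). In CD24negTomato+ libraries its normalized counts were 213, 219.7 and 217, against 153, 178 and 128 in Tomatoneg. The groups did not overlap, but the log2 fold change of 0.51 (95% interval -0.29 to 1.31) had a limma adjusted P of 0.480. In CD24+Tomato+ libraries Jag1 was 232, 137 and 147 against 169, 187 and 138, with a log2 fold change of 0.04 (95% interval -0.93 to 1.004, limma adjusted P = 0.966). Replicate 1 was the only CD24+Tomato+ library above the Tomatoneg range, and without it the log2 fold change was -0.20.

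Both receptors were lower in CD24negTomato+ than in Tomatoneg libraries without passing the adjusted threshold. Notch1, the main receptor of crypt progenitors together with Notch2, lies at chr2:26457903-26516663 (minus strand, 34 exons) and is overlapped by 0610009E02Rik and Gm13568 on the opposite strand. Normalized counts of Notch1 were 173, 114 and 168 in CD24negTomato+ and 241, 1464 and 456 in Tomatoneg libraries. The Tomatoneg values covered a wide range, with replicate 2 the highest, and all 3 lay above the CD24negTomato+ values. The log2 fold change was -1.86 (95% interval -3.34 to -0.39, limma adjusted P = 0.197). Without Tomatoneg replicate 1 it was -2.45 with a limma adjusted P of 0.0448, and without Tomatoneg replicate 2 it was -1.15 with 0.287. The other 12 alternatives did not pass the threshold either. In CD24+Tomato+ libraries Notch1 was 744, 381 and 293 against 229, 1321 and 422, which overlapped (log2 fold change -0.21, 95% interval -1.76 to 1.34, limma adjusted P = 0.872). The sign turned to 0.49 without Tomatoneg replicate 2 and to 0.08 without CD24+Tomato+ replicate 3.

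Notch2 lies at chr3:98013527-98150361 (plus strand, 34 exons) and is overlapped on the same strand by Gm42819 and Gm42820. Its normalized counts were 79.8, 89.1 and 176 in CD24negTomato+ against 362, 286 and 260.5 in Tomatoneg libraries. All CD24negTomato+ values were below all Tomatoneg values, and the log2 fold change was -1.47 ± 0.43 (SE, 95% interval -2.47 to -0.47, limma adjusted P = 0.143, 0.0899 with the block). In CD24+Tomato+ libraries Notch2 was 194, 128 and 225 against 389, 292 and 273. The groups again did not overlap, with a log2 fold change of -0.82 (95% interval -1.71 to 0.07, limma adjusted P = 0.210). The direction was the same in all 14 alternatives of each comparison, and none of them passed the threshold.

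Markers of other cells moved beside the receptors. The 8 genes of the lymphocyte list, which include Ptprc, Cd3e and Cd8a, summed to 269 to 482 normalized counts in CD24negTomato+ and to 1370 to 3907 in Tomatoneg libraries, and to 178 to 311 against 1478 to 3996 in the CD24+Tomato+ table. All 8 were lower in mean in both comparisons, and 7 did not overlap. Of all genes, 10.6% in the CD24negTomato+ and 14.4% in the CD24+Tomato+ comparison were lower without overlap. The stem list, led by Lgr5 and Olfm4, summed to 3505 to 5380 in CD24negTomato+ against 11368 to 29034 in Tomatoneg libraries, with all 8 genes lower in mean. In CD24+Tomato+ libraries it was 16282 to 22739 against 12400 to 29929, which overlapped, and 5 of the 8 genes were higher in mean. Of these Sox9 and Cd44 rose without overlap (log2 fold changes 1.76 and 2.07, limma adjusted P = 0.00806 and 0.0385). All other genes of the stem list, which include Lgr5, Olfm4 and Ascl2, overlapped there. The part of lymphocytes and stem cells in the levels of Notch1 and Notch2 was not tested.

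Lfng encodes a Fringe glycosyltransferase of the Golgi that modifies Notch receptors and alters their response to Delta and Jagged ligands. It lies at chr5:140607320-140615545 (plus strand, 8 exons). Normalized counts of Lfng were 557, 644 and 717 in CD24+Tomato+ libraries, compared with 0, 312 and 231 for Tomatoneg replicates 1, 2 and 3. All CD24+Tomato+ libraries were above all Tomatoneg libraries, but the value of 0 widened the interval: the log2 fold change was 3.93 (95% interval -0.77 to 8.64, limma adjusted P = 0.255). Without Tomatoneg replicate 1 it was 1.24 (95% interval 0.60 to 1.88) with a limma adjusted P of 0.0242. In CD24negTomato+ libraries Lfng was 199, 165 and 164 against 0, 282 and 204. The CD24negTomato+ values lay between the lowest and the other Tomatoneg values, so the fitted log2 fold change (95% interval -2.36 to 6.73, limma adjusted P = 0.596) was above 0 and turned to -0.45 without replicate 1.

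Rbpj encodes the DNA-binding partner of the cleaved receptor. The gene lies at chr5:53466152-53657362 (plus strand) and is overlapped by Gm10441 and Gm40304 on the opposite strand. Its normalized counts were 527, 488 and 413 in CD24negTomato+ against 233, 483 and 272 in Tomatoneg libraries, and 647, 370.3 and 514 in CD24+Tomato+ against 240.0, 472 and 273. Both comparisons overlapped through Tomatoneg replicate 2, with log2 fold changes of 0.60 (limma adjusted P = 0.427) and 0.66 (limma adjusted P = 0.307).

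Of the Hes and Hey genes, Hes1 is the classical target and the repressor of Atoh1. It lies at chr16:30064384-30067796 (plus strand, 4 exons). Hes1 was 311, 552 and 526 in CD24negTomato+ against 327, 717 and 676 in Tomatoneg libraries, with replicate 1 lowest in both groups. It was 403, 392.3 and 555 in CD24+Tomato+ libraries against 337, 701 and 678. The groups overlapped in both comparisons, at log2 fold changes of -0.27 (95% interval -1.21 to 0.67) and -0.29 (95% interval -1.15 to 0.57), so both intervals include a 2-fold decrease. Hes1 was lower in all 3 same-numbered CD24negTomato+ pairs. With the block the intervals were -0.80 to 0.26 and -0.98 to 0.41, with limma adjusted P of 0.454 and 0.509. They no longer included a 2-fold decrease. Without Tomatoneg replicate 1, and without the block, the CD24negTomato+ log2 fold change was -0.63 (limma adjusted P = 0.235). In the CD24+Tomato+ comparison the log2 fold change ranged from -0.63 to -0.10 over the 14 alternatives.

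Hes6, which unlike Hes1 promotes neuroendocrine differentiation and is known to interfere with HES1, lies at chr1:91411483-91414038 (minus strand, 4 exons). Its normalized counts were 1892, 2626 and 2789 in CD24+Tomato+ and 1649.6, 1325 and 1374 in Tomatoneg libraries. The groups did not overlap, and the log2 fold change of 0.73 (95% interval 0.20 to 1.27) had a limma adjusted P of 0.0783, or 0.0502 with the block. Hes6 passed the threshold here in 1 of 14 alternatives (limma adjusted P = 0.03955). In CD24negTomato+ libraries Hes6 was 1155, 1135 and 1196 against 1529, 1293 and 1307. All 3 were below the Tomatoneg values, by a log2 fold change of -0.24 (95% interval -0.72 to 0.24, limma adjusted P = 0.582).

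Hey1 (chr3:8663359-8667256, minus strand) is a Notch target best known from vessels. It was 2.28, 3.61 and 3.25 in CD24negTomato+, 1.49, 2.49 and 0 in CD24+Tomato+, and 0, 0 and 3.10 or 4.86, depending on the table, in Tomatoneg libraries. These values were near or below the limit of detection, and the mean of Hey1 was under the filter of 10, so a difference was not detectable at this depth. With the filter widened to genes with any value above 0, its log2 fold changes were 1.32 and 0.19 (limma adjusted P = 0.458 and 0.904).

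Levels of different members were compared per kb, as the normalized count divided by the length of the longest coding transcript. In CD24+Tomato+ libraries Hes6 was highest at 1824 ± 358 normalized counts per kb (SD, n = 3), followed by Dll1 at 858 ± 127 and Dll4 at 707 ± 81.4, whose ranges overlapped. Hes1 (307 ± 62.2) and Lfng (277 ± 34.7) came next, also with overlapping ranges, and then, below them without overlap, Rbpj (93.0 ± 25.2), Notch1 (49.8 ± 25.2), Jag1 (30.6 ± 9.29) and Notch2 (17.4 ± 4.69), each of which overlapped its neighbor in the order except Jag1 and Notch2. In CD24negTomato+ libraries Hes6 (870.3 ± 23.2) and Dll1 (451 ± 124) led, Hes1 (315 ± 89.9) and Dll4 (314 ± 54.0) were level, and Notch1 (15.99 ± 3.45) and Notch2 (10.9 ± 5.04), which overlapped, were the lowest above Hey1. In Tomatoneg libraries, on the scale of the CD24negTomato+ table, the order was Hes6, Hes1, Dll1 and Dll4, where Hes1 and Dll1 overlapped. Per kb, Hes6 was the highest member in all 3 populations and Notch2 was always among the lowest 3, while Notch1 was near the middle of the order in Tomatoneg libraries.

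**Figure D3:**
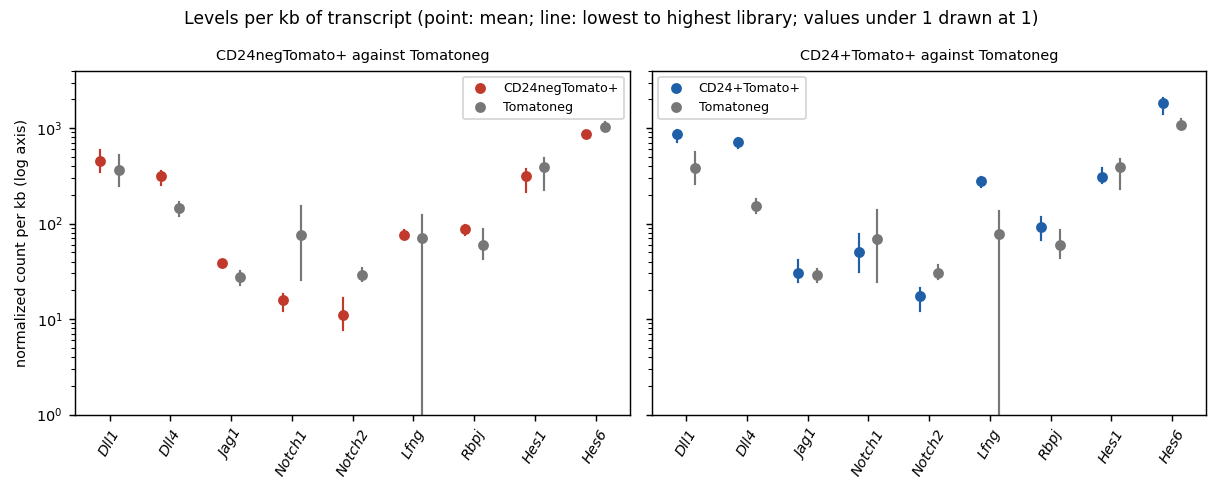
Normalized counts per kb of the longest coding transcript, on a log vertical axis, for the 9 members above detection. Points are means of 3 libraries and lines run from the lowest to the highest library, with values under 1 drawn at 1. Red is CD24negTomato+, blue is CD24+Tomato+ and gray is Tomatoneg in the same table. Hes6 is highest throughout, and the line of Lfng in Tomatoneg reaches the bottom because replicate 1 was at 0.

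Ratios of a pair of members within a library do not depend on its overall scaling, so they were set side by side over all 3 populations. The log2 ratio of Dll1 to Jag1 was 3.90, 4.23 and 4.44 in CD24+Tomato+ libraries, 3.30, 2.78 and 2.52 in CD24negTomato+ libraries and 3.60, 2.73 and 2.79 in Tomatoneg libraries on the scale of the CD24negTomato+ table. The CD24+Tomato+ ratio was above that of both other populations without overlap, by 1.18 over Tomatoneg within its own table and over CD24negTomato+ by a similar amount. Each had an exact two-sided permutation P of 0.1, which is the smallest P that 3 against 3 libraries allow, and the adjusted P over 12 tests was 0.343. The Tomato+ populations stand in separately scaled tables, where the shared Tomatoneg libraries differed by a constant offset for each gene. Removing these offsets, an alternative added after the values were seen, gave -1.36 in place of -1.32 for CD24negTomato+ minus CD24+Tomato+.

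The log2 ratio of Hes6 to Hes1 was 2.23, 2.74 and 2.33 in CD24+Tomato+ and 1.89, 1.04 and 1.19 in CD24negTomato+ libraries. The groups did not overlap, and the difference of -1.06 for CD24negTomato+ minus CD24+Tomato+ (-0.99 with the offsets removed) had an exact permutation P of 0.1, or 0.343 after adjustment. Tomatoneg libraries, at 2.29, 0.92 and 1.02 on the scale of the CD24+Tomato+ table, overlapped both. These overlaps came through Tomatoneg replicate 1 alone. The log2 ratio of Dll1 to Dll4 had means of 0.44 in CD24negTomato+ and 0.21 in CD24+Tomato+ libraries, with ranges of 0.25 to 0.67 and -0.06 to 0.57. Tomatoneg libraries ranged from 0.47 to 2.06 on the scale of the CD24negTomato+ table, with replicate 1 the highest. They overlapped both Tomato+ populations (exact permutation P = 0.2 for each, adjusted 0.343). The ratio of Notch1 to Notch2 varied more within Tomatoneg libraries, from -0.59 to 2.36, than between populations, with exact permutation P of 0.2 to 0.8.

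**Figure D4:**
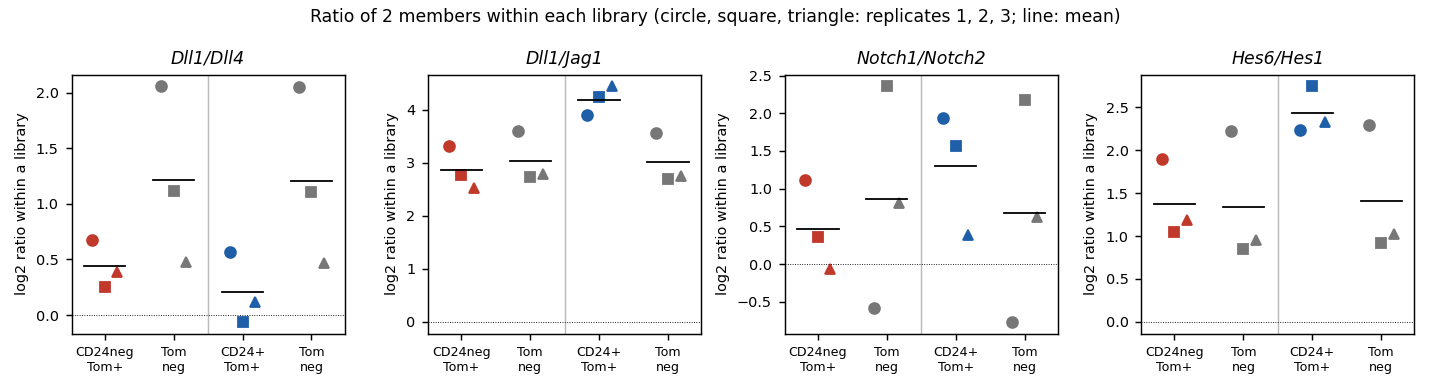
Log2 ratios of normalized counts within each library for Dll1/Dll4, Dll1/Jag1, Notch1/Notch2 and Hes6/Hes1 (vertical axes). The left pair of groups in each panel is from the CD24negTomato+ table and the right pair from the CD24+Tomato+ table, with replicates 1, 2 and 3 as circles, squares and triangles and means as lines. The CD24+Tomato+ values of Dll1/Jag1 (3.90 to 4.44) lie above all others.

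Beyond the members, 60 other genes of the pathway were grouped by role. In the CD24+Tomato+ comparison 51 of these were tested, of which 10 rose and 2 fell, against 8.02% and 4.89% of all genes. The median log2 fold change of the 51 was 0.30, against 0.16 for all genes. Most that rose belonged to the lineage factors that Notch restrains, where all 7 of the 8 genes that could be tested rose. Atoh1, the factor that commits crypt cells to secretory fates, was 2998, 2546 and 2648 in CD24+Tomato+ against 582, 582 and 458 in Tomatoneg libraries (2.34 log2 fold change, limma adjusted P = 0.00187). Spdef, which drives goblet and Paneth maturation, was 2.58 higher and Gfi1, another factor downstream of Atoh1, 1.97 higher on the log2 scale (limma adjusted P = 0.00236 and 0.00700). The endocrine factors Insm1, Neurog3 and Neurod1 had log2 fold changes of 4.54, 3.25 and 5.27 (limma adjusted P = 0.00152, 0.00231 and 0.0236), and Sox4 had 1.96 (limma adjusted P = 0.0237). Neurog3 drove the Cre that defined the Tomato+ sort.

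Other calls in that comparison were spread over further roles. Neurl1a, a ubiquitin ligase for Notch ligands, was 326, 243 and 293 against 42.7, 42.0 and 39.1 (2.76 log2 fold change, limma adjusted P = 0.0101). Dlk1, an atypical Delta-like protein, was 93.0, 56.1 and 14.3 against 0, 3.62 and 1.85 (4.20 log2 fold change, limma adjusted P = 0.0464, 0.0579 with the block). Of the regulators of receptor turnover, the ubiquitin ligase gene Dtx1 fell from 76.5, 197 and 123 in Tomatoneg to 11.4, 10.3 and 10.7 in CD24+Tomato+ libraries (-3.39 log2 fold change, limma adjusted P = 0.0187). Numb, whose product antagonizes Notch, was 1228, 747 and 715 against 2293, 1497 and 2054 (-1.14 log2 fold change, limma adjusted P = 0.0442). None of the 10 genes of receptor cleavage, which include Adam10 and Ncstn, changed past the threshold. With the block 12 pathway genes rose and 5 fell, against 10.8% and 9.95% of all genes, so the share that fell was near that of all genes. Maml3, Mib1 and Dll3 were added among those higher (limma adjusted P = 0.0176, 0.0322 and 0.0455). Hes2, Mib2 and Neurl1b were added among those lower (limma adjusted P = 0.0206, 0.0299 and 0.0344), and Dlk1 was lost.

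In the CD24negTomato+ comparison 49 of the 60 genes were tested, of which 2 rose and 0 fell, against 0.999% and 0.32% of all genes. The median log2 fold change of the 49 was 0.08, equal to that of all genes. Both genes that rose were lineage factors. Atoh1 was 2789, 2714 and 1668 against 540.0, 569 and 437 (2.18 log2 fold change, limma adjusted P = 0.0164), and Spdef was 2857, 3239 and 2484 against 647, 1069.8 and 808 (1.79, limma adjusted P = 0.0233). With the block 6 rose and 2 fell, against 4.34% and 2.96% of all genes, so the share that fell was near that of all genes. Insm1, Gfi1, Neurod1 and Neurl1a were added among those higher, with limma adjusted P of 0.0224, 0.0285, 0.0309 and 0.0377. Dtx4 and Kat2a were added among those lower, with limma adjusted P of 0.0342 and 0.0388. Neurog3 was 14.6, 19.6 and 41.2 in CD24negTomato+ libraries against 80.2, 123 and 147, without overlap (-2.26 log2 fold change, limma adjusted P = 0.126), and Sox4 overlapped at a log2 fold change of -0.14. The goblet and enteroendocrine lists were higher beside these factors, at 2105617 to 2807278 and 96479 to 164979 against 134207 to 205978 and 3114 to 7482 normalized counts, with 7 of 8 and 8 of 8 genes higher in mean. The tuft list was lower, at 385 to 416 against 1303 to 2070. The sum of the Paneth list, at 18258 to 45496 against 35344 to 142602, overlapped. All 8 genes of each of these lists were lower in mean. The enterocyte list overlapped, at 275274.6 to 647982.5 against 201919.2 to 727526.0, with 4 genes higher and 4 lower in mean.

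**Figure D5:**
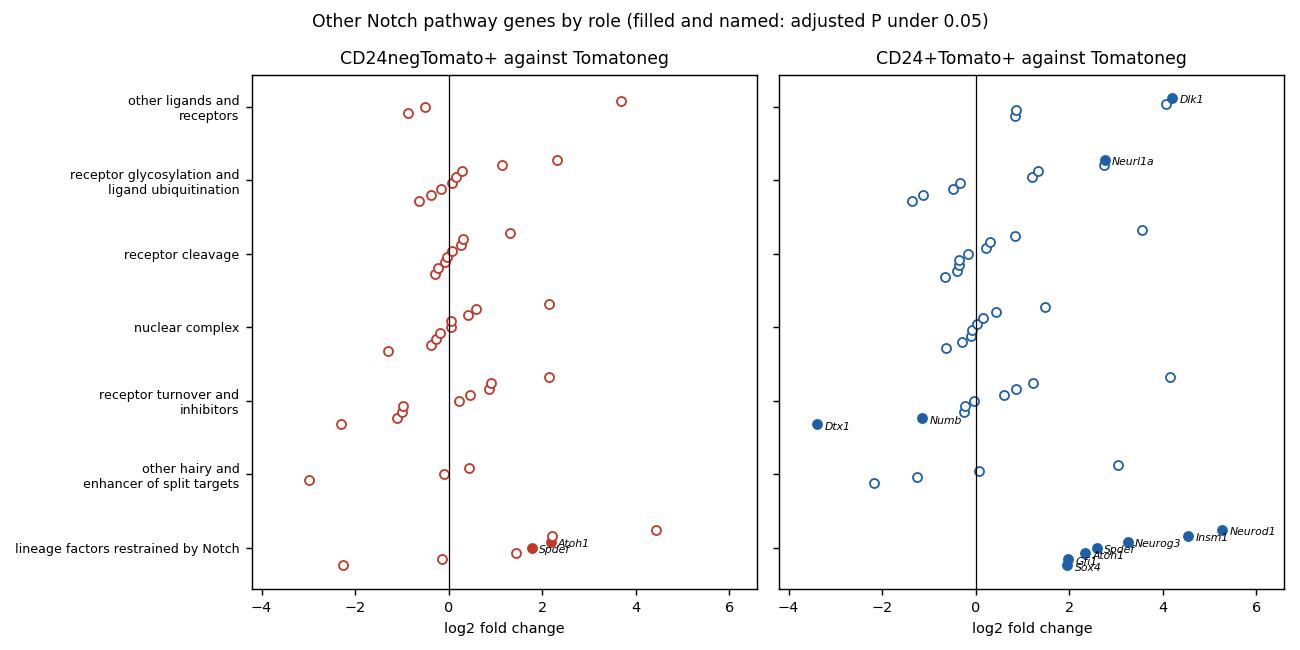
Log2 fold change against Tomatoneg (horizontal axis) of other Notch pathway genes that were tested and are reported here, in rows by role, for CD24negTomato+ (left, red) and CD24+Tomato+ (right, blue). Each circle is a gene, and filled, named circles have a limma adjusted P under 0.05. All 7 tested lineage factors are filled on the right, and Atoh1 and Spdef are filled on the left.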

How the data were processed

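mRNA was selected with poly-A and sequenced from 9 libraries of sorted mouse cells, 3 per group. Per the labels, the authors used bcl2fastq 2.19, kallisto 0.44.0, sleuth and DESeq2 on GRCm38. The authors deposited a signal, the normalized count: estimated gene counts from kallisto divided by normalization factors of DESeq2 within each of 2 tables of 6 libraries, with the same Tomatoneg libraries in both. Strand use in counting is not given in the sources used here, so reads of overlapping opposite-strand genes cannot be assigned with certainty. For each Tomatoneg library, the ratio between the tables relative to its median was constant per gene within 0.01 on the log2 scale for 100.0% of 11754 genes, with different constants for different genes, so whole reads were not recovered. Depth was estimated from the value taken as 1 read. Detection limits cover counting error only.

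Linear models were fitted in R 4.3.3 to log2(normalized count + 1) with limma 3.58.1 (lmFit and trended eBayes), one table at a time. A gene entered when its 6 values averaged 10 or more. Tests were two-sided, with Benjamini-Hochberg adjustment over all tested genes and a threshold of 0.05. On this scale the change of low genes is understated. The test was checked on simulated data. Ratios were compared by exact permutation over libraries, with Benjamini-Hochberg adjustment in scipy 1.17.1. Same-numbered replicates deviated together (r = 0.302, 0.291 and 0.342 in the CD24negTomato+ table, and 0.283, 0.180 and 0.375 in the CD24+Tomato+ table), so a replicate block was also fitted. The pairing comes from replicate numbers in the labels, and the sources used here do not tie a number to particular mice.

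The members and gene lists were chosen with earlier results of these data known. Named genes are all members, up to 10 other pathway genes per comparison by smallest adjusted P past the threshold, the lineage factors, Foxo1, Neurog3 and Cd24a, and markers that moved with a member, with genes called under the block and the other called pathway genes added after their values were seen. Alternatives were other pseudocounts, filters, scalings and variance models, the block, and single libraries left out. Gene positions come from GENCODE M21 and start-site windows from RefSeq. Values of some genes of the lists are not reported here. Single-cell, organoid and imaging data were not analysed here.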

Additional observations from a re-analysis of the deposited data

Results flagged for a closer look

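Hes6 was flagged because its difference from Tomatoneg had opposite directions in the 2 Tomato+ populations in all 3 same-numbered pairs, with log2 fold changes of -0.24 in CD24negTomato+ and 0.73 in CD24+Tomato+ cells (limma adjusted P = 0.582 and 0.0783). The same pattern was seen for the other pathway genes given here with CD24negTomato+ first. Neurog3, the endocrine progenitor factor, had log2 fold changes of -2.26 and 3.25 (limma adjusted P = 0.126 and 0.00231). For the receptor gene Notch4 they were -0.87 and 0.87 (0.427 and 0.1975), and for Numbl, a relative of Numb, -0.98 and 1.23 (0.605 and 0.316). Kat2a, an acetyltransferase of the nuclear complex, had -1.29 and 0.44 (0.135 and 0.444). In the other direction, Numb had 0.23 and -1.14 (0.636 and 0.0442). Without the block, only Neurog3 and Numb passed the threshold, each in CD24+Tomato+ cells alone. The share of all genes with this pattern was not determined. For none of these genes was the contrast of both populations tested, since the tables were scaled separately and share the Tomatoneg libraries.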

How the results depend on the processing

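Dll4 passed the threshold in CD24+Tomato+ cells under all 14 alternatives. With the replicate block, the CD24negTomato+ comparison called 8 other pathway genes in place of 2 and 979 genes in place of 177, and the CD24+Tomato+ comparison 2885 genes in place of 1791. Beyond Foxo1 and the pathway genes named with the block, it changed no call described, and none among the members. Members called in CD24+Tomato+ cells were 1 in place of 2 with a pseudocount of 0.1, with library totals made equal and without the variance trend, Dll1 being the one lost. With quantile normalization 3 members were called there. In CD24negTomato+ cells, other pathway genes called were 5 with a pseudocount of 10, 1 with equal totals and 5 with quantile normalization, and genes called were 112 and 415 with pseudocounts of 0.1 and 10, 494 with quantile normalization and 291 without the trend. Leaving out 1 library at a time gave 0 to 1 members, 0 to 10 other pathway genes and 9 to 916 genes called in CD24negTomato+ cells, and 1 to 3, 4 to 15 and 137 to 2393 in CD24+Tomato+ cells. The highest of these counts were without Tomatoneg replicate 1, and the lowest gene counts were without replicate 2 of the Tomato+ group. Jag1 in CD24+Tomato+ cells turned to -0.52 on the log2 scale with quantile normalization, -0.20 without CD24+Tomato+ replicate 1 and -0.08 without Tomatoneg replicate 3 (range with 1 library left out -0.20 to 0.18). Notch1 there turned to 0.08 without CD24+Tomato+ replicate 3 and 0.49 without Tomatoneg replicate 2 (range -0.77 to 0.49), and Lfng in CD24negTomato+ cells to -0.45 without Tomatoneg replicate 1 (range -0.45 to 3.62). The cause was not tested. Equal totals and quantile normalization moved the median of all genes by -0.20 and -0.13 in the CD24negTomato+ comparison, where calls split into 98 higher and 60 lower, and 304 and 190, in place of 134 and 43. Quantile normalization moved it by -0.18 in the CD24+Tomato+ comparison, with 991 higher and 1036 lower in place of 1113 and 678. Hey1 stayed near or below the limit of detection, and the cause was not tested.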
